A study of Bos taurus with 8 samples.

Results

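Retinoid metabolism was examined through 10 genes, *ALDH1A1*, *ALDH1A2*, *ALDH1A3*, *DHRS3*, *CYP26A1*, *CYP26B1*, *CRABP1*, *CRABP2*, *RBP4* and *STRA6*. They were taken by name from the count table, and each matched 1 of its 24596 rows. Cartilage came from the knee joints of wild-type calves 1 to 2 weeks old. Superficial zone chondrocytes (SZCs) came from a thin slice at the joint surface. Deep zone chondrocytes (DZCs) came from a deeper slice of the same cartilage core, below a middle slice that was discarded. Slices of a zone were pooled by joint, digested, and the cells were kept for 3 days in DMEM/F12 with fetal bovine serum before RNA-Seq, with 2 libraries per zone. No retinoid was added or withdrawn in any group, so the comparison is between zones of cultured cells.

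Retinoic acid is made from vitamin A and acts on genes through nuclear receptors of the RAR and RXR families. Retinol travels in blood bound to the carrier RBP4, and STRA6 is the membrane receptor that takes it from RBP4 into cells. Inside the cell retinol is oxidised reversibly to retinaldehyde, a step that RDH10 drives forward and DHRS3 drives back, and retinaldehyde is oxidised irreversibly to retinoic acid by the ALDH1A enzymes. CRABP1 and CRABP2 bind retinoic acid in the cytoplasm, and the CYP26 enzymes break it down. In the developing limb cartilage forms where retinoic acid signalling is low, and *CYP26B1* is a known part of that control.

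The libraries held between 19918970 and 21890549 counts. Levels are given as TMM-scaled CPM, that is counts scaled to a common library size after the trimmed mean of *M* values method has corrected for differing composition. The scaling factor was 0.735 in DZC replicate 1 and between 1.08 and 1.14 in the other libraries, so DZC replicate 1 stood apart. All 7 chondrocyte markers examined, *COL2A1*, *ACAN* and *SOX9* among them, were counted in every library. They summed to 120635 and 123233 CPM in SZCs and 485759 and 188133 CPM in DZCs. *COL2A1* gave 64981 and 55516 CPM of these sums in SZCs and 333205 and 118929 CPM in DZCs. *COL2A1*, *COL9A1*, *COL11A1* and *COMP* were higher in both DZC libraries, while *ACAN*, *SOX9* and *HAPLN1* overlapped between the zones. The part of the marker differences in the levels of *STRA6* and *DHRS3*, also higher in both DZC libraries, was not tested. The hypertrophic and bone markers, of which 7 of 8 exceeded 3 counts in some library, summed to 110.4 and 104 CPM in SZC replicates 1 and 2, 19.1 CPM in DZC replicate 1 and 269.9 CPM in DZC replicate 2. *SPP1* alone gave 108 and 102 CPM of these sums in SZCs and 18.9 and 200.7 CPM in DZCs, and *COL10A1*, the next in SZCs, was at 1.04 and 0.776 CPM there. In DZC replicate 1 *COL10A1*, *IBSP* and *MMP13* were at 0 counts. Fibroblast and synovium markers, all 8 of which exceeded 3 counts, summed to 16566 and 24761 CPM in SZCs and 4290.45 and 13666 CPM in DZCs. The libraries are bulk samples, so fewer cells of a type and less RNA per cell cannot be told apart. Levels of different retinoid genes are not compared, since counts were not divided by transcript length. For the same reason a marker's part of a sum is a part of the counts only.

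In the comparison of SZCs with DZCs, 7 of the 10 genes passed the filter on low counts. At a false discovery rate (FDR) of 0.05 in edgeR's exact test 0 of the 7 were called, beside 2.93% of the 12857 genes tested. With no filter 0 of the 10 were called, beside 2.06% of genes. DESeq2, which called 3.09% of genes, and edgeR's quasi-likelihood test, which called 0 genes, likewise called 0 of the 7 they tested. At an unadjusted p-value below 0.05 there were 3, *DHRS3*, *STRA6* and *CRABP1*, beside 9.09% of all tested genes. The libraries of the zones did not overlap for 4 of the 7, with *CRABP1* and *CRABP2* higher in both SZC libraries and *DHRS3* and *STRA6* higher in both DZC libraries. Such separation was found for 41.5% of all tested genes. The median log2 fold change of the 7 genes, SZCs over DZCs, was -0.38, and that of all tested genes was -0.04.

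**Figure D1:**
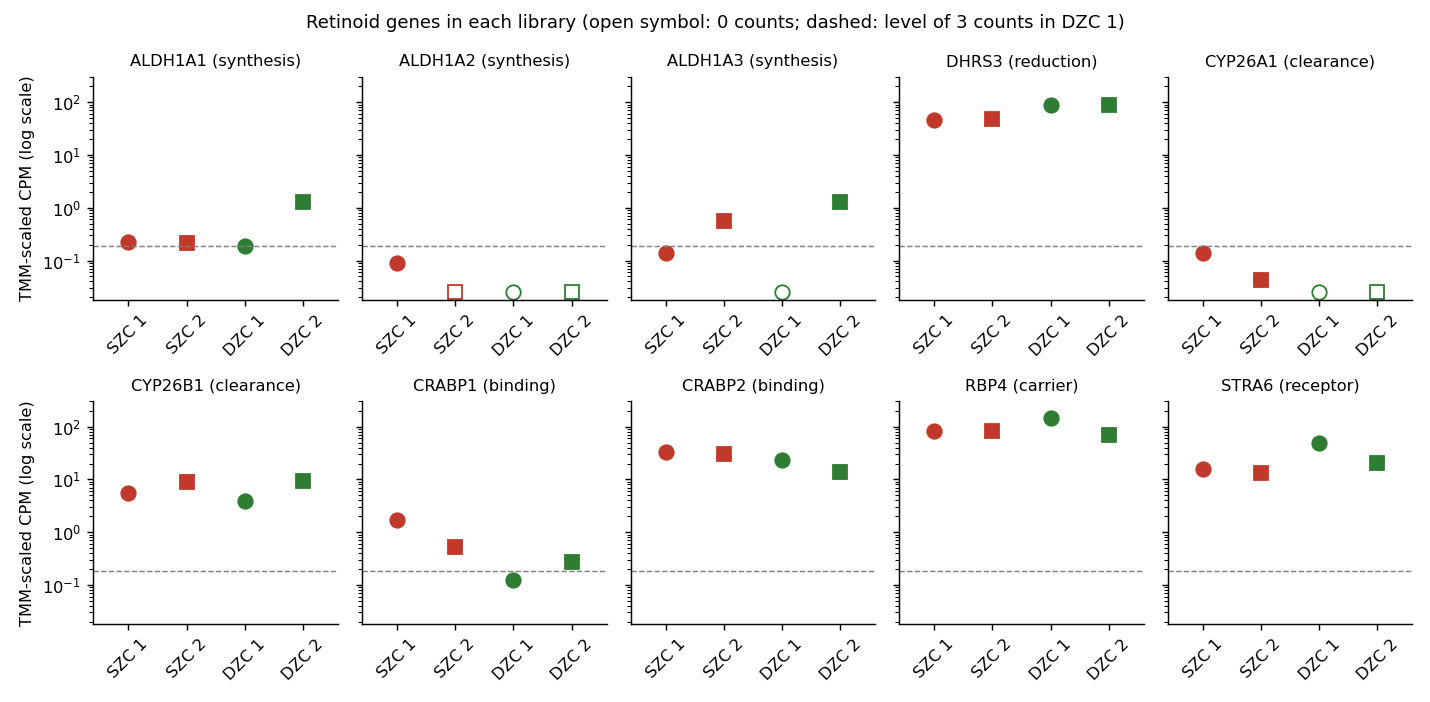
Level of each of the 10 genes in each library, as TMM-scaled CPM on a log axis, with SZC libraries in red, DZC libraries in green, circles for replicate 1 and squares for replicate 2. *DHRS3*, *CRABP2*, *RBP4*, *STRA6* and *CYP26B1* lie well above the level of 3 counts in every library, while *ALDH1A2* and *CYP26A1* had at most 3 counts in all 4.

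The carrier and its receptor were counted in every library. *STRA6* (ENSBTAG00000007348) had 345 and 308 counts in SZC replicates 1 and 2 and 778 and 455 counts in DZC replicates 1 and 2. Its level was 15.7 and 13.3 CPM in SZCs and 48.4 and 20.4 CPM in DZCs, so both DZC libraries lay above both SZC libraries, by a wide margin only in DZC replicate 1. SZCs had a mean of 14.5 ± 1.70 CPM (SD, n = 2), whereas DZCs had one of 34.4 ± 19.8 CPM (SD, n = 2). *STRA6* was thus 2.37-fold higher in DZCs, with a log2 fold change of -1.25 (95% interval -2.25 to -0.25, standard error 0.51) that missed the threshold (edgeR's exact test, FDR 0.279). Without DZC replicate 2 the log2 fold change was -1.73 and without DZC replicate 1 it was -0.49. It was -1.38 without SZC replicate 1 and -1.14 without SZC replicate 2. With libraries scaled by their totals it was -0.83 (edgeR's exact test, FDR 0.69). In fits without a DZC replicate the lone DZC library is assumed to vary like the SZC pair, whose replicates lay closer together.

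*RBP4* (ENSBTAG00000000442) had 1813 and 1909 counts in SZCs and 2325 and 1542 in DZCs. Its level was 82.4 and 82.2 CPM in the SZC libraries and 144.6 and 69.1 CPM in the DZC libraries. The SZC libraries thus lay between the DZC libraries. *RBP4* gave a log2 fold change of -0.38 (95% interval -1.27 to 0.52, standard error 0.46; edgeR's exact test, FDR 0.99), and one of 0.03 with scaling by library totals. Without DZC replicate 1 the log2 fold change was 0.26, and without DZC replicate 2 it was -0.80. It was -0.39 without SZC replicate 1 and -0.38 without SZC replicate 2. Adipocytes are a known source of RBP4, and 3 of the 4 adipocyte markers examined matched a row of the table. These summed to 17.7 and 15.2 CPM in SZCs and 6.78 and 5.87 CPM in DZCs, and *LEP* had at most 1 count in any library. *FABP4* carried the difference, at 12.2 and 9.44 CPM in SZCs and 1.18 and 1.57 CPM in DZCs, while *PLIN1* was at 5.54 and 5.73 CPM in SZCs and 5.60 and 4.26 CPM in DZCs.

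The ratio of *STRA6* to *RBP4* counts within a library does not depend on the scaling between libraries. It was 0.19 and 0.161 in SZC replicates 1 and 2 and 0.335 and 0.295 in DZC replicates 1 and 2, so the zones did not overlap and the DZC libraries, which differed for each gene alone, were close. On the log2 scale the mean ratio was -2.51 ± 0.17 (SD, n = 2) in SZCs and -1.67 ± 0.13 (SD, n = 2) in DZCs, a difference of -0.84 or a 1.79-fold higher ratio in DZCs. This ratio was chosen after the values were seen and was not tested.

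*DHRS3* (ENSBTAG00000024493) is the reductase that returns retinaldehyde to retinol and is known to be induced by retinoic acid. After TMM scaling it had the closest DZC replicates of the 8 genes above 3 counts. It had 1013 and 1135 counts in SZCs and 1421 and 1990 in DZCs. Its level was 46.0 and 48.9 CPM in SZCs and 88.4 and 89.2 CPM in DZCs, so on this scale the libraries of a zone nearly coincided and the zones were apart. The match of the DZC pair rested on the TMM factors, 0.735 in replicate 1 and 1.08 in replicate 2. The lower count, 1421, came from the larger library, with 21890549 counts in all against 20611568. SZCs averaged 47.5 ± 2.04 CPM (SD, n = 2), whereas DZCs averaged 88.8 ± 0.565 CPM (SD, n = 2). *DHRS3* was 1.87-fold higher in DZCs, with a log2 fold change of -0.90 (95% interval -1.54 to -0.26, standard error 0.33). In edgeR's exact test its unadjusted p-value was 0.00628 and its FDR 0.142. With each library left out in turn the log2 fold change stayed between -0.95 and -0.87. Its FDR in edgeR was 0.0234 without DZC replicate 1, where 6.67% of genes were called, and 0.0118 without DZC replicate 2, where 20.7% were. It was 1 without either SZC replicate. With scaling by library totals the log2 fold change was -0.60 (edgeR's exact test, FDR 0.867), and that scaling moved the median over the tested genes from -0.04 to 0.26.

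*RDH10*, which catalyses the opposite step, had 219 and 348 counts in SZCs and 134 and 346 in DZCs, and its log2 fold change of 0.06 was smaller than the standard error of 0.52 (edgeR's exact test, FDR 1). The ratio of *DHRS3* to *RDH10* counts within a library was 4.63 and 3.26 in SZCs and 10.6 and 5.75 in DZCs. Both DZC libraries lay above both SZC libraries, with a difference in the mean log2 ratio of -1.01, which was -0.57 without DZC replicate 1 and -1.45 without DZC replicate 2. As for the previous ratio, the pair was chosen after the values were seen and no test was made.

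**Figure D2:**
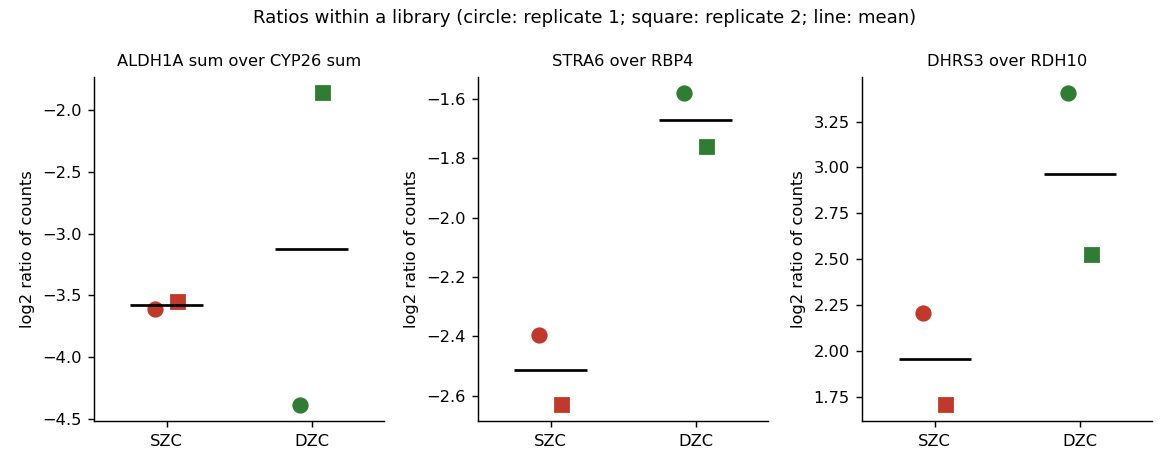
Log2 ratio of counts within each library for the summed ALDH1A genes over the summed CYP26 genes, *STRA6* over *RBP4*, and *DHRS3* over *RDH10*, with each panel on its own axis. The zones overlap in the first panel, where DZC replicates 1 and 2 lie at -4.39 and -1.86 around the SZC libraries, and are apart in the others.

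The enzymes that make retinoic acid had few counts in every library. *ALDH1A2* (ENSBTAG00000010119), the main enzyme of retinoic acid synthesis in the embryo, had 2 and 0 counts in SZCs and 0 and 0 in DZCs. That is under 3 counts, the detection floor used here, which corresponds to between 0.129 and 0.187 CPM in these libraries. A difference between the zones was therefore not detectable at this depth.

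*ALDH1A1* (ENSBTAG00000008103) had 5 and 5 counts in SZCs, 3 in DZC replicate 1 and 29 in DZC replicate 2. Its level was 0.227, 0.215, 0.187 and 1.30 CPM in the same order, so DZC replicate 2 alone was high. *ALDH1A3* (ENSBTAG00000009125) had 3 and 13 counts in SZCs, 0 in DZC replicate 1 and 29 in DZC replicate 2, again highest in DZC replicate 2. For *ALDH1A3* a log2 fold change of -0.90 came with a standard error of 1.53 (95% interval -3.90 to 2.09; edgeR's exact test, FDR 1), and it was -0.23 without SZC replicate 1, -2.22 without SZC replicate 2 and -1.87 without DZC replicate 1. *ALDH1A1* did not pass the filter, and with no filter it gave a log2 fold change of -1.74 with a standard error of 1.13 (edgeR's exact test, FDR 0.986). This was -1.77 without SZC replicate 1, -1.70 without SZC replicate 2 and -2.52 without DZC replicate 1, in fits where the gene passed the filter. For either gene the interval was too wide to separate a large change from none. DZC replicate 2 was also the library with the highest sum of hypertrophic and bone markers, with 468 counts of *MMP13*, 445 of *ALPL* and 268 of *IBSP* against at most 10 of each in any other library. Their part in the *ALDH1A1* and *ALDH1A3* counts was not tested.

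Of the clearing enzymes, *CYP26B1* was counted in every library and *CYP26A1* was not. *CYP26A1* (ENSBTAG00000021118), which is strongly induced by retinoic acid in many cells, had 3 and 1 counts in SZCs and 0 and 0 in DZCs, at or under that floor. *CYP26B1* (ENSBTAG00000012212) had 119 and 210 counts in SZCs and 63 and 210 in DZCs. Its level was 5.41 and 9.05 CPM in SZCs and 3.92 and 9.41 CPM in DZCs, so replicate 2 was the higher library in either zone and the zones overlapped. *CYP26B1* gave a log2 fold change of 0.11 (95% interval -1.13 to 1.36, standard error 0.64; edgeR's exact test, FDR 1). The interval allows up to a 2.56-fold higher level in SZCs and does not show that the zones are alike. Leaving out DZC replicate 1 gave -0.37 and leaving out SZC replicate 2 gave -0.30, so the sign rested on single libraries.

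The summed counts of the 3 ALDH1A genes were set against those of both CYP26 genes within each library. The ALDH1A share of these counts was 7.58% in SZC replicate 1 (95% Wilson interval 4.17% to 13.4%) and 7.86% in SZC replicate 2 (5.03% to 12.1%). In DZCs replicate 1 had a share of 4.55% (1.56% to 12.5%), whereas replicate 2 had 21.6% (17.1% to 27.0%). The interval of DZC replicate 2 thus lay above those of the other 3 libraries, which overlapped one another. On the log2 scale the mean ratio was -3.58 ± 0.04 (SD, n = 2) in SZCs and -3.12 ± 1.79 (SD, n = 2) in DZCs, and the difference of -0.46 was smaller than the spread of the DZC pair. It was -1.72 without DZC replicate 1 and 0.81 without DZC replicate 2, so its direction rested on 1 library. The intervals cover the counting of reads alone and leave out differences between replicates. Because PCR copies of a molecule are counted as separate reads, they may also be too narrow.

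Both cytoplasmic binding proteins were higher in SZC than in DZC libraries without passing the FDR threshold. *CRABP2* (ENSBTAG00000005716), which carries retinoic acid to its receptors in the nucleus, had 720 and 688 counts in SZCs and 374 and 304 in DZCs. Its level was 32.7 and 29.6 CPM in SZCs and 23.3 and 13.6 CPM in DZCs, with no overlap. SZCs averaged 31.2 ± 2.17 CPM (SD, n = 2), whereas DZCs averaged 18.4 ± 6.82 CPM (SD, n = 2). *CRABP2* was 1.69-fold higher in SZCs, with a log2 fold change of 0.76 (95% interval -0.06 to 1.57, standard error 0.42; edgeR's exact test, FDR 0.654). Without DZC replicate 1 it was 1.20 (FDR 0.0044 in edgeR, with 6.67% of genes called), and without DZC replicate 2 it was 0.44 (FDR 0.347). The FDR was 1 without either SZC replicate.

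*CRABP1* (ENSBTAG00000012909) had 38 and 12 counts in SZCs and 2 and 6 in DZCs. Its level was 1.73 and 0.517 CPM in SZCs and 0.124 and 0.269 CPM in DZCs, so SZC replicate 1 stood above the rest and SZC replicate 2 lay nearer to DZC replicate 2. *CRABP1* was 5.42-fold higher in SZCs, with an interval from 1.38 to 21.3, and its log2 fold change was 2.44 with a standard error of 1.01. In edgeR's exact test its unadjusted p-value was 0.0175 and its FDR 0.286. Without SZC replicate 1 the log2 fold change was 1.34, and without SZC replicate 2 it was 3.07. The summed level of the fibroblast and synovium markers was also higher in both SZC libraries than in either DZC library. Of these 8 markers 3, *COL3A1*, *COL1A2* and *CD55*, were higher in both SZC libraries, *PDPN* was higher in both DZC libraries, and the other 4 overlapped. Their part in the levels of *CRABP1* and *CRABP2* was not tested.

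**Figure D3:**
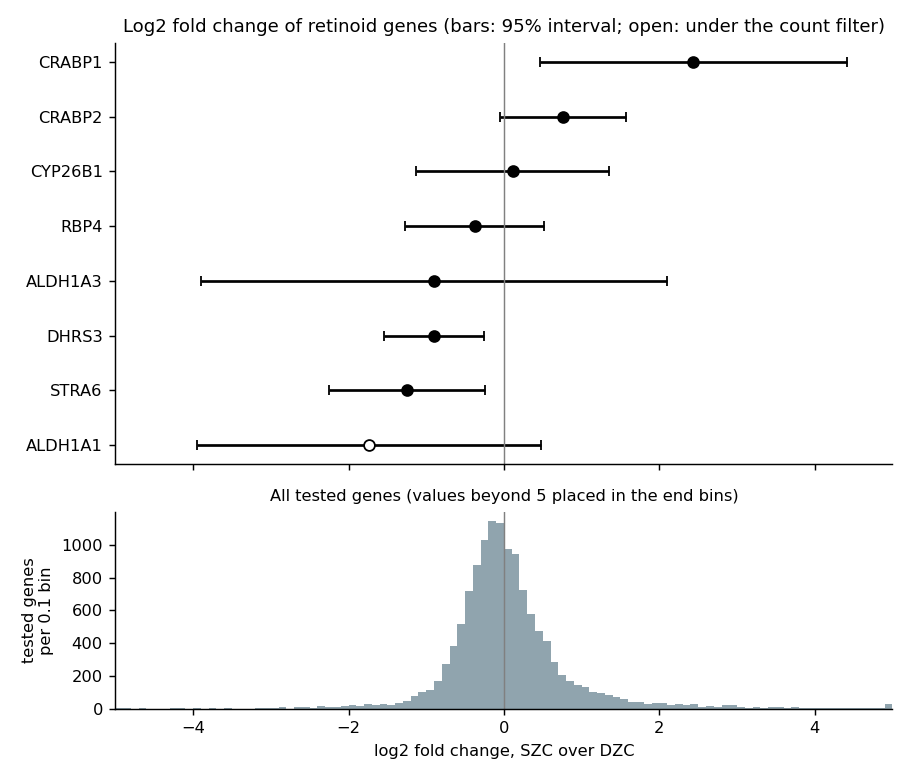
Log2 fold change, SZCs over DZCs, of the 8 genes above the level of 3 counts, with 95% intervals from the negative binomial standard error (top; *ALDH1A1*, open, was under the count filter), over the distribution of all tested genes (bottom). The intervals of *CRABP1*, *DHRS3* and *STRA6* leave out 0, and that of *ALDH1A3* is the widest.

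The genes also differed in how well the replicates of a zone matched. On the log2(CPM + 0.5) scale the median absolute difference between replicates over all tested genes was 0.23 in SZCs and 0.52 in DZCs. *DHRS3* lay well inside both values, at 0.09 in SZCs and 0.01 in DZCs. Differences between the DZC libraries depend on the TMM factors, 0.735 in replicate 1 and 1.08 in replicate 2. Between the DZC libraries, replicate 2 was higher by 1.85 for *ALDH1A3*, 1.39 for *ALDH1A1* and 1.17 for *CYP26B1*. It was lower there by a log2 difference of -1.23 for *STRA6*, -1.06 for *RBP4* and -0.75 for *CRABP2*. The sum of the chondrocyte markers was likewise lower in DZC replicate 2, with *SOX9* at 55.0 against 141.6 CPM in DZC replicate 1. The part of these differences in the retinoid genes was not tested.

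**Figure D4:**
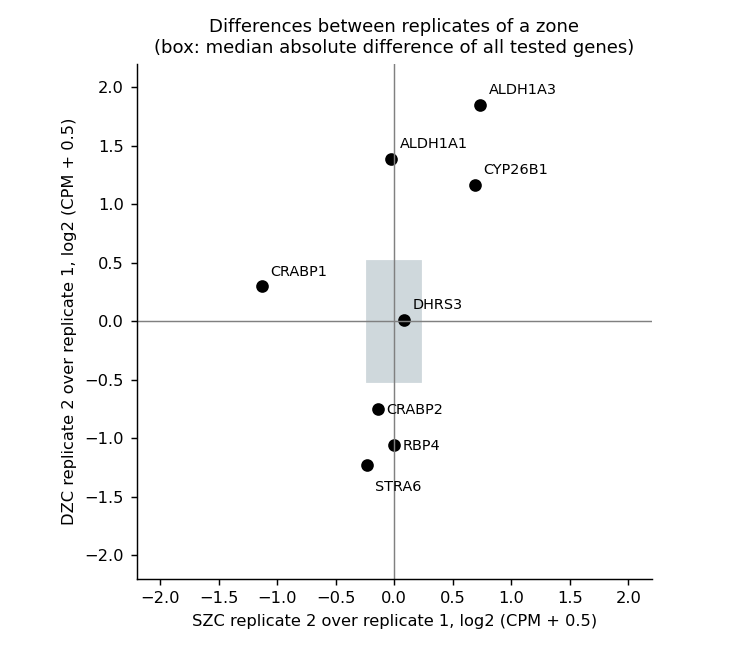
Difference between replicates 2 and 1 in SZCs (horizontal) and DZCs (vertical) on the log2(CPM + 0.5) scale for the 8 genes above the level of 3 counts, with a grey box at the median absolute difference of all tested genes. *DHRS3* falls inside the box, while *ALDH1A1*, *ALDH1A3* and *CYP26B1* lie above it and *STRA6*, *RBP4* and *CRABP2* below it.

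The rest of the pathway was described by a list of 50 further genes for carriers, enzymes, receptors and cofactors, of which 28 passed the filter. In edgeR's exact test 0 of the 28 passed an FDR of 0.05, beside 2.93% of all tested genes, and 4 had an unadjusted p-value below 0.05, beside 9.09%. The median log2 fold change of the 28 was 0.08. DESeq2 called 2 of them, beside 3.09% of genes, and the quasi-likelihood test called 0. The 3 genes with the lowest p-values were *LPL*, *FABP5* and *CYP1B1*. *LPL*, a lipase that also frees retinol from its esters in lipoproteins, had 388 and 401 counts in SZCs and 541 and 1005 in DZCs. *LPL* was higher in DZCs by a log2 fold change of -1.17 with a standard error of 0.36 (FDR 0.0506 in edgeR, 0.0461 in DESeq2). *FABP5*, a fatty acid binding protein that can carry retinoic acid to PPARD, was at 24.1 and 34.4 CPM in SZCs and 7.90 and 13.9 CPM in DZCs, with a log2 fold change of 1.42 and a standard error of 0.46 (FDR 0.0734 in edgeR). *CYP1B1*, a cytochrome P450 that can oxidise retinol, was at 37.9 and 29.8 CPM in SZCs and 1.99 and 11.2 CPM in DZCs, with a log2 fold change of 2.36 and a standard error of 0.76 (FDR 0.0971 in edgeR, 0.0323 in DESeq2). The log2 fold change of *CYP1B1* was 1.60 without DZC replicate 1 and 4.10 without DZC replicate 2. With each library left out in turn that of *LPL* stayed between -1.36 and -0.93 and that of *FABP5* between 1.07 and 1.90. Over the alternatives that keep all libraries the FDR ran from 0.0461 to 0.659 for *LPL*. It ran from 0.0417 to 0.35 for *FABP5* and from 0.0156 to 0.454 for *CYP1B1*. For *FABP5* and *CYP1B1* the DZC libraries were both below the SZC libraries, and for *LPL* both were above.

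Of the receptors, *RARA*, *RARG*, *RXRA* and *RXRB* passed the filter and 0 of the 4 were called, beside 2.93% of all tested genes. *RARA* was at 150.3 and 84.3 CPM in SZCs and 51.8 and 60.0 CPM in DZCs, higher in both SZC libraries, with a log2 fold change of 1.07 and a standard error of 0.42 (FDR 0.214 in edgeR). Without SZC replicate 1 that of *RARA* was 0.59 (FDR 1), and without DZC replicate 2, where 20.7% of genes were called, it was 1.19 (FDR 0.0142). *RARG* was at 351 and 323 CPM in SZCs and 453 and 193.6 CPM in DZCs, and the zones overlapped (log2 fold change 0.06, standard error 0.50). *RXRA* and *RXRB* had log2 fold changes of 0.09 (standard error 0.38) and -0.47 (standard error 0.52). The directions of these 3 receptors rested on single libraries. Without DZC replicate 1 the values were 0.80 for *RARG*, 0.47 for *RXRA* and 0.34 for *RXRB*, and without DZC replicate 2 they were -0.41, -0.19 and -0.97, of which that of *RXRB* passed the threshold (FDR 0.0098 in edgeR), as that of *RARA* did. *RXRG* had at most 2 counts in any library. *RARB*, a receptor gene that is itself a classical target of retinoic acid, had 0 and 0 counts in SZCs and 2 and 9 in DZCs, and did not pass the filter.

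Genes known to respond to retinoic acid were listed as well, and 23 of 25 matched a row of the table and 13 passed the filter. Of the 13, 2 were called, both higher in SZCs, and the other 11 did not pass. Over all tested genes 2.23% were called higher in SZCs. The median log2 fold change of the 13 was 0.40, with 10 of the 13 above 0, as were 46.6% of all tested genes. The list was chosen with earlier results of these data known, so these shares cannot show whether targets differ from other genes. *PDK4*, a kinase that restrains pyruvate oxidation and responds to many signals besides retinoic acid, had 222 and 162 counts in SZCs and 7 and 18 in DZCs. *PDK4* rose in SZCs by a log2 fold change of 3.74 with a standard error of 0.65 (FDR 1.17e-05 in edgeR), a difference far larger than that between the libraries of a zone. *TGM2*, a transglutaminase that crosslinks matrix proteins, was at 28.5 and 16.0 CPM in SZCs and 4.73 and 3.18 CPM in DZCs, with a log2 fold change of 2.50 and a standard error of 0.51 (FDR 0.000366 in edgeR). *RARRES2*, which encodes the secreted protein chemerin, went in the other direction, with 71.6 and 73.7 CPM in SZCs and 411.5 and 125.4 CPM in DZCs. *RARRES2* gave a log2 fold change of -1.89 with a standard error of 0.59 (FDR 0.0728 in edgeR). DESeq2, with 3.09% of genes called, called 3 of the targets, the third being *RARRES2* (FDR 0.0256). Its log2 fold change was -0.78 without DZC replicate 1 and -2.49 without DZC replicate 2. The quasi-likelihood test gave *PDK4* an FDR of 0.137 and *TGM2* one of 0.192. Without SZC replicate 1, where 0.436% of genes were called, 0 of the targets were (FDR 0.187 for *PDK4* and 0.765 for *TGM2* in edgeR), and without DZC replicate 2, where 20.7% of genes were called, there were 5.

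**Figure D5:**
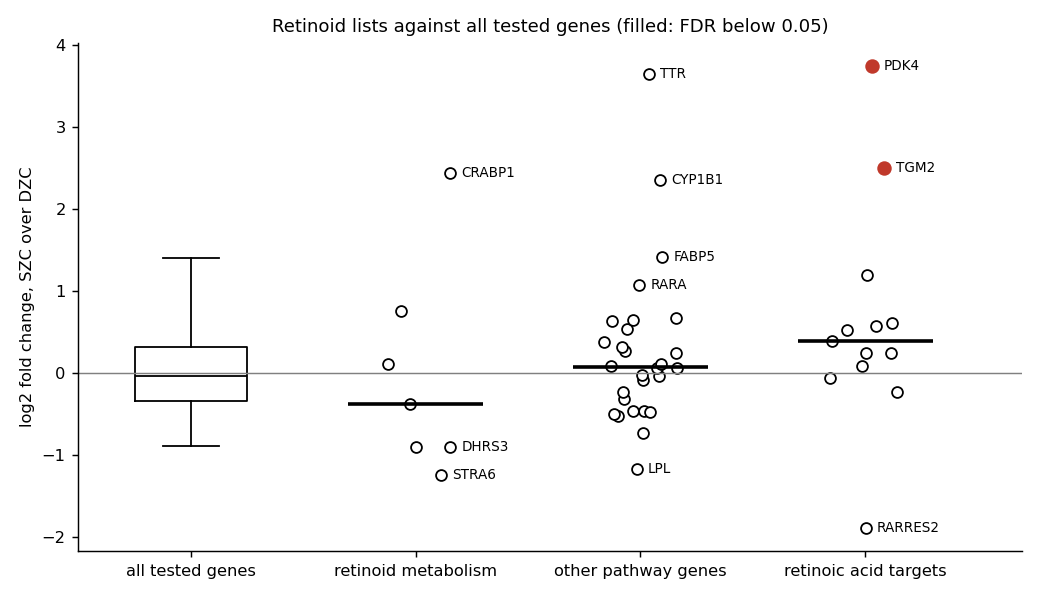
Log2 fold change, SZCs over DZCs, of the tested genes among the 10 retinoid metabolism genes, the other pathway genes and the retinoic acid targets, beside all tested genes (box: quartiles and median, whiskers: the central part of the distribution from the 5th to the 95th percentile). Thick lines are medians and filled points passed an FDR of 0.05, which holds for *PDK4* and *TGM2* alone.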

How the data were processed

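The authors sequenced single-end SMART-Seq v4 libraries, aligned reads with STAR 2.5.2b to the cow genome (Ensembl build UMD 3.1) and deposited raw counts per gene, made for an unstranded library. Reads of overlapping genes on opposite strands therefore cannot be told apart. A second deposited table holds the authors' own log2 fold changes and FDR values, which were not used. Its gene names filled 8 of 6119 blank names. No ATAC-Seq data were used here.

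Samples were matched to count columns by zone and replicate number. The study describes the 2 libraries of a zone as biological duplicates. Whether same-numbered libraries share a joint is not given in the sources used here. Counts were tested in edgeR 4.0.16 (R 4.3.3) with the default filter, TMM scaling, gene-wise dispersion and the exact test, with Benjamini–Hochberg adjustment over 12857 genes and a threshold of 0.05. The methods of the study name the scaling and test, but no filter. Standard errors came from the gene-wise dispersion, and intervals are 1.96 standard errors to each side. Alternatives were the quasi-likelihood test with and without a replicate block, DESeq2 1.42.0, other filters, scalings and dispersions, and each library left out in turn. The scripts were tested on simulated data.

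The 10 genes were given by name, and they and the lists of pathway, target and marker genes were chosen with earlier results of these data known. Of the pathway and target lists, genes past the threshold were named, or the 3 with the lowest p-values where fewer passed, with the receptors, and 1 gene of this rule is not reported here. *RDH10* and *TTR* were added after their values were seen. Sequences, transcript lengths and coordinates of the authors' build were not used here.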

Additional observations from a re-analysis of the deposited data

How the results depend on the processing

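Over the 8 alternatives that keep all libraries, the fold changes of the 8 genes above the level of 3 counts gave 55 values, of which 54 kept their direction and 0 passed an FDR of 0.05 (lowest 0.0984). The exception was *RBP4*, at 0.027 when libraries were scaled by their totals, a setting under which 44 genes were called higher in DZCs, against 90. Of all calls 86.7% were then higher in SZCs, against 76.1%. The quasi-likelihood test of edgeR called 0 genes in all, so 0 higher in SZCs, 0 higher in DZCs and 0 retinoic acid targets, and gave 1126 genes an unadjusted p-value under 0.05. Of the other pathway genes, against 0, 2 were called in DESeq2 (*LPL* and *CYP1B1*, beside 3.09% of all genes), 1 with DESeq2 size factors within edgeR (*LPL*, beside 2.93%) and 1 with common then gene-wise dispersion (*CYP1B1*, beside 3.03%). Of the targets DESeq2 and common then gene-wise dispersion each called 3, against 2, the third being *RARRES2* (FDR 0.0256 and 0.0201). The cause was not tested.

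The zones share replicate numbers, and libraries of the same number deviated from their zone means with a correlation of 0.42 over genes. In the quasi-likelihood test with a replicate block 347 genes were called, or 2.7% of those tested, and 0 of the 7 retinoid genes tested were. It called 2 of the other pathway genes (*FABP5*, FDR 0.0417, and *TTR*, FDR 0.0164) and 2 of the targets (*PDK4*, FDR 0.0116, and *TGM2*, FDR 0.00906).

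With each library left out in turn, which leaves the lone library of a zone assumed to vary like the other zone, 58 to 2725 genes were called, 52 to 1607 higher in SZCs and 6 to 1118 higher in DZCs. These were 0.436% and 1.13% of the genes tested without SZC replicates 1 and 2, and 6.67% and 20.7% without DZC replicates 1 and 2. Of the retinoid genes tested 0 to 3 were called, 0 to 1 higher in SZCs and 0 to 3 higher in DZCs, with 0 to 11 of the other pathway genes and 0 to 5 of the targets. The highest counts came without DZC replicate 2 for all of these except the 1 gene higher in SZCs, *CRABP2*, which came without DZC replicate 1. The log2 fold change ranged from -0.37 to 0.90 for *CYP26B1* and from -0.80 to 0.26 for *RBP4*. *ALDH1A3* had no fold change without DZC replicate 2, where the remaining DZC library had 0 counts. None was computed for *ALDH1A2* and *CYP26A1*, which were at or under 3 counts in every library, so depth sets the limit for them.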

Other observations

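Transthyretin, encoded by *TTR*, is the partner of RBP4 in blood, and its counts varied widely between libraries of a zone. *TTR* had 13 counts in SZC replicate 1 and 462 in SZC replicate 2, and 0 in DZC replicate 1 and 36 in DZC replicate 2. Replicate 2 was the higher library in either zone, and the log2 fold change of 3.65 had a standard error of 1.75 (edgeR FDR 0.678 in the exact test, 0.0164 in the quasi-likelihood fit with the replicate block). The direction rested on SZC replicate 2, without which the log2 fold change was -0.46 (FDR 1 in edgeR), and no fold is given without DZC replicate 2, since the remaining DZC library had 0 counts. *RBP4* was at 82.4 and 82.2 CPM in the SZC libraries.

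*CYP26A1* and *RBP4* lie near each other, with 3 protein-coding genes between them in the gene order of the RefSeq annotation of assembly ARS-UCD2.0. Of those 3, *MYOF* had between 376 and 3479 counts in the 4 libraries, *CEP55* between 6 and 175, and *FFAR4*, a fatty acid receptor, at most 1. *MYOF* and *CEP55* were lowest in DZC replicate 1, the library in which *RBP4* was highest.

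*CRABP1* made up 5.01% of the *CRABP1* and *CRABP2* counts of SZC replicate 1, with a 95% Wilson interval of 3.67% to 6.81%. Its share was 1.71% (0.983% to 2.97%) for SZC replicate 2. For DZCs the share was 0.532% (0.146% to 1.92%) with replicate 1, against 1.94% (0.89% to 4.16%) with replicate 2. These intervals reflect counting error alone. Those of SZC replicate 2 and both DZC libraries overlapped, as did those of SZC replicate 1 and DZC replicate 2.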
